A study of Caenorhabditis elegans with 2 samples.

Results

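The genes kin-20 and lin-42 are the Caenorhabditis elegans homologues of the Drosophila clock genes doubletime and period. They were taken here as a named pair, with the summits of eGFP-tagged BLMP-1 ChIP-seq in the gene body or the 5000 bp upstream of its start. The rule took every line of the ce11 lists with its summit there, which gave 7 of the 818 nuclear peaks of the authors' IDR list and 25 of the 30000 pooled candidate regions. In the replicate lists it gave 25 of 30000 candidates in replicate 1 and 32 of 30000 in replicate 2. The 2 genes stand among 19973 nuclear protein-coding genes of the annotation. They were selected on the strength and number of their peaks in earlier results from these same lists, so their counts, signal values and ranks are given as a description with no test.

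The zinc finger protein BLMP-1 is the worm homologue of vertebrate PRDM1. It was mapped in whole embryos of mixed stage and both sexes, of unknown age, from strain OP109, whose genotype is unc-119(ed3) III; wgIs109, where wgIs109 is the insertion of tagged blmp-1. The design has a single group with 2 biological replicates, each with fragments of 150 to 350 bp, and no untagged or second condition was analysed here. The authors' IDR list (irreproducible discovery rate, a measure of how well ranks repeat between replicates) was 1 file for both replicates. It held the highest ranking pooled candidates, and 785 of its 818 nuclear peaks overlapped a candidate in both replicates. Both replicates are of the same insertion strain, the labels give no copy number of the insertion, and in whole embryos the cells that carry a signal cannot be told apart. Sequencing depth is unknown, since the lists give no counts of reads.

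In flies, the kinase Doubletime phosphorylates Period and so promotes its degradation, which sets the pace of the daily clock. In worms, kin-20 encodes the casein kinase 1 homologue of Doubletime, and lin-42 encodes the Period homologue, whose transcript rises and falls with each larval molt. Both genes act in the timing of epidermal development in larvae, where BLMP-1 is also a timing factor that the F-box protein DRE-1 targets for degradation. The embryos profiled here precede these larval cycles.

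The kinase gene kin-20 had 5 IDR peaks, 4 in the long intron 1 of its longest transcript and 1 just upstream of its start. At least 5 IDR summits in the gene body or the 5000 bp upstream were found for 0.015% of nuclear protein-coding genes, which are kin-20, pqn-41 and unc-4. At least 1 was found for 6.22%. The gene lies on the minus strand at X 15268602 to 15277764 (WBGene00002203), and its locus with the upstream stretch spans 14.2 kb, against a median of 7.03 kb over nuclear protein-coding genes. The part of this length in the count was not tested. Transcript F46F2.2g starts at the gene start, F46F2.2a starts 3975 bp further in, and the others start 4025 to 4817 bp in. The 4 intron peaks thus lie between the start of the long transcript and the starts of the short ones.

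The strongest kin-20 peak stood in intron 1, 807 bp inside the gene start, at X 15276850 to 15277123 with its summit at X 15276957. Its signal value, the authors' strength score whose scale is not stated and which is not compared in size between lists, was 254 in the pooled list, 145 in replicate 1 and 114 in replicate 2. By rank it was 29 in the pooled list, 37 in replicate 1 and 22 in replicate 2, which places it near the top of all 3 lists. The noncoding RNA gene F46F2.9, at 15276988 to 15277063 on the minus strand, overlaps the region but not the pooled summit. The summit in replicate 2, at X 15277003, lay inside F46F2.9. Also F46F2.12 at the peak X 15275462 and F46F2.10 at the peak X 15274196 overlap the region but not the pooled summit. Both are on the plus strand.

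A pair of peaks further into the intron came next. The peak with its summit at X 15275001 had a signal value of 152 (pooled rank 76), with 82.3 in replicate 1 (rank 108) and 73.0 in replicate 2 (rank 51). The peak with its summit at X 15275462 had 126 (pooled rank 110), with 75.0 in replicate 1 (rank 127) and 65.3 in replicate 2 (rank 65). They lie 2763 and 2302 bp inside the gene start, and 1212 and 1673 bp upstream of the start of F46F2.2a. Both replicates thus placed the 3 intron peaks of highest signal in the same order.

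The remaining kin-20 peaks flank these 3 and sit close to annotated transcript starts. The peak with its summit at X 15277906 lay 142 bp upstream of the gene start, with a signal value of 62.6 (pooled rank 471), 37.3 in replicate 1 (rank 535) and 26.1 in replicate 2 (rank 509). The peak at X 15274196 lay 407 bp upstream of the start of F46F2.2a, with 51.1 (pooled rank 693), 28.7 in replicate 1 (rank 910) and 19.1 in replicate 2 (rank 1206). Taking from each replicate as many of its strongest regions as the IDR list holds, 4 of the 5 peaks were in both, and the peak at X 15274196 was in neither.

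**Figure D1:**
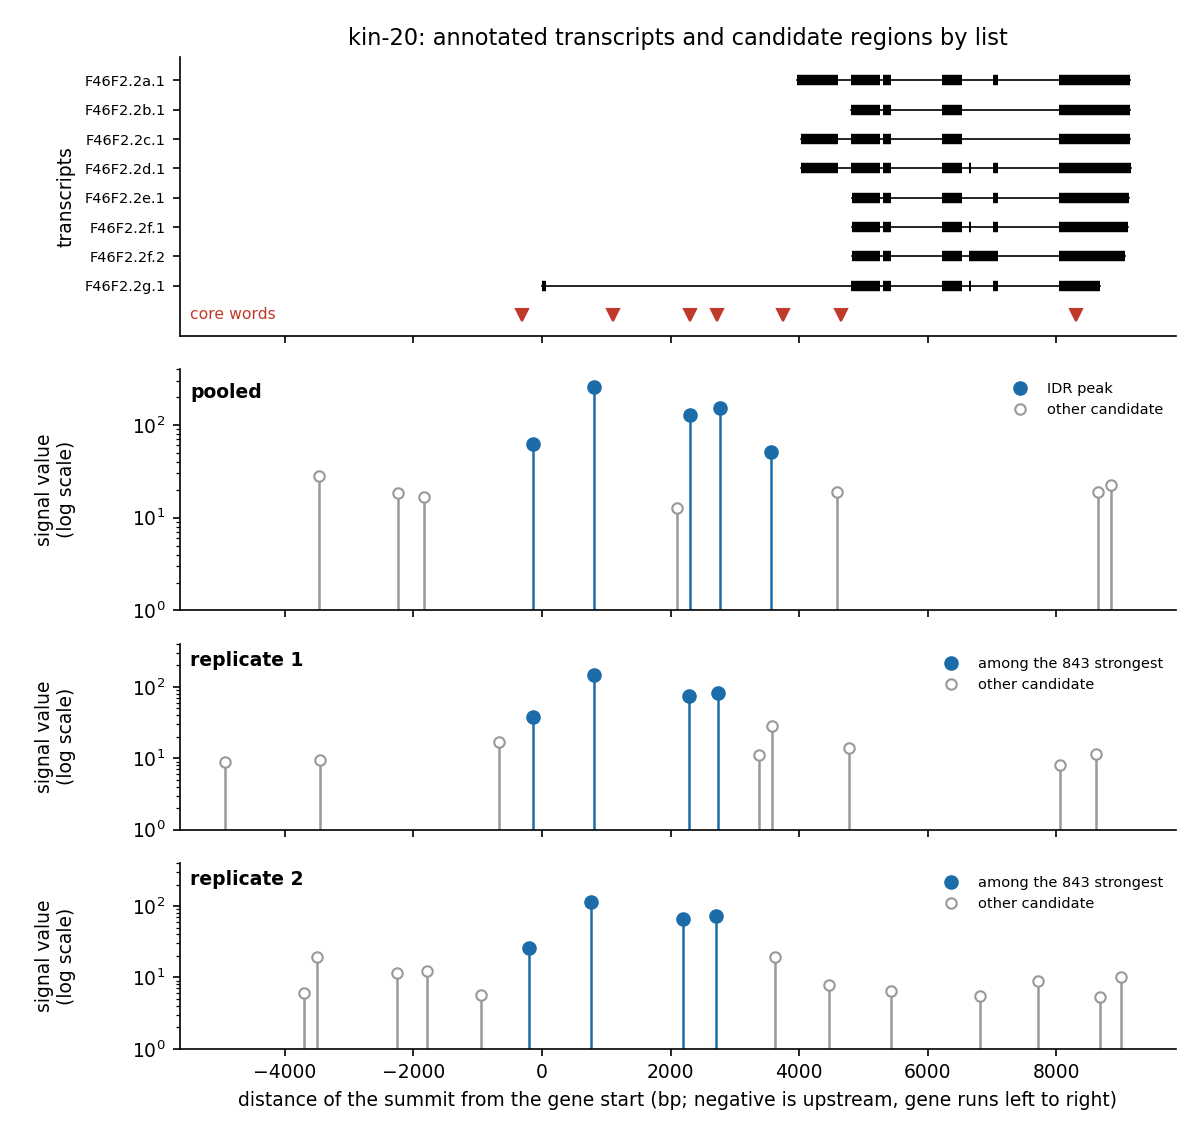
Transcripts of kin-20 (top, exons as boxes) and candidate regions of the pooled list and of each replicate, by distance of the summit from the gene start in bp and by signal value on a log scale. Filled points are IDR peaks (pooled) or the strongest regions up to the number of IDR peaks (replicates), open points are other candidates, and triangles mark the sequence AAGTGAAA. The 5 IDR peaks stand between 142 bp upstream and 3568 bp inside the start, ahead of the shorter transcripts.

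The 101 bases around 4 of the kin-20 summits are printed because the peaks differ in the sequence words they hold. All are plus-strand sequence of build ce11, read from the RefSeq genome WBcel235, while the gene is read from the minus strand. Capitals mark the BLMP-1 core AAGTGAAA or its reverse complement TTTCACTT, the shorter word AGTGAAA, which lies within the core, and GAGAGA or its reverse complement TCTCTC.
kin-20 intron 1, chrX:15276907-15277007: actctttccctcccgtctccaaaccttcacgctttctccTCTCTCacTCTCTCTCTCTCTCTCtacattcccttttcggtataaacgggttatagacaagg
kin-20 intron 1, chrX:15274951-15275051: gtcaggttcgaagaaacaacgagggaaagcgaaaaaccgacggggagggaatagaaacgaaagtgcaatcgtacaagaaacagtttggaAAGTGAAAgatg
kin-20 intron 1, chrX:15275412-15275512: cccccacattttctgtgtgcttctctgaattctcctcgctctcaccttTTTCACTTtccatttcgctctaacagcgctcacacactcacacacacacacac
kin-20 upstream, chrX:15277856-15277956: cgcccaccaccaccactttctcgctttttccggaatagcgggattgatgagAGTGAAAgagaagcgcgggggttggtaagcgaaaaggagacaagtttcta

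The strongest kin-20 summit sat in a run of GAGAGA words with no core, whereas the next 2 each held 1 core. The core at X 15275460 to 15275467 covered the summit at X 15275462, and the core at X 15275040 to 15275047 lay 39 bp from the summit at X 15275001. In replicate 1 the same cores lay within 50 bp of that library's own summits. In replicate 2 the summit of the peak at X 15275462 was placed at X 15275569, beyond 50 bp from its core, and held GAGAGA instead. The peak upstream of the gene start held only the shorter word, which was not within 50 bp of its replicate 2 summit at X 15277963. Within 100 bp of the pooled summits, 2 of the 5 peaks held GAGAGA, against 1 within 50 bp.

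Below the IDR list, kin-20 had 7 further pooled candidates, all at rank 2765 or lower. The highest were at X 15281237 with a signal value of 28.5 (rank 2765), at X 15268907 with 22.7 (rank 5726) and at X 15273169 with 18.8 (rank 10064). Next came those at X 15269110 with 18.7 (rank 10220) and at X 15279998 with 18.5 (rank 10645). The candidate at X 15281237, 3473 bp upstream of the gene start, ranked 1135 in replicate 2 and 22020 in replicate 1. The lowest kin-20 peak inside the IDR list thus had 51.1, the highest candidate outside it 28.5, and the list itself ended at 46.1.

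Along the 5000 bp limit the nearest candidates were weak on both sides. The outermost one inside was the one at X 15281237, and the next beyond was at X 15283836, 6072 bp upstream, with a signal value of 18.9 (rank 9940). The first one past the 3′ end lay 446 bp beyond the gene (25.7, rank 3803). The strongest kin-20 candidates in 1 replicate alone were at X 15272993 in replicate 1 (14.0, rank 8471) and at X 15279561 in replicate 2 (12.2, rank 4596). The kin-20 regions without an overlapping one in the other replicate thus all ranked 4596 or lower.

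The Period homologue lin-42 had 2 IDR peaks, both in introns and both at lower pooled ranks than 4 of the 5 kin-20 peaks. At least 2 IDR summits were found for 0.606% of nuclear protein-coding genes. The gene lies on the minus strand at II 1233236 to 1252359 (WBGene00018572), and its locus with the upstream stretch spans 24.1 kb. Transcripts F47F6.1d and F47F6.1f start at the gene start, F47F6.1b and F47F6.1c start 8324 bp further in, and F47F6.1e, F47F6.1a and F47F6.1g start 12258, 15390 and 17734 bp in. The long transcripts d and f, like e and g, have no annotated 5′ UTR, so the gene start used here is the start of their coding sequence. The kin-20 transcripts F46F2.2e and F46F2.2f also lack one.

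The stronger lin-42 peak lay in intron 1 of the long transcripts, 733 bp upstream of the shared start of F47F6.1b and F47F6.1c. It ran from II 1244610 to 1244925 with its summit at II 1244768, and its signal value was 53.5 in the pooled list (rank 623). Replicate 1 gave it 36.5 (rank 560) and replicate 2 gave it 26.5 (rank 492). By signal value each replicate thus ranked it slightly higher than the pooled list did, whereas by q value it ranked 1379 in replicate 1.

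The other lin-42 peak ran from II 1241335 to 1241650, with its summit at II 1241493 in intron 2 of transcripts b and c and intron 3 of d and f. Its signal value was 48.2 in the pooled list (rank 782), 35.2 in replicate 1 (rank 608) and 27.9 in replicate 2 (rank 433). Replicate 2 ranked it above the peak at II 1244768, while replicate 1 and the pooled list ranked it below, so the order of these neighbours was not shared by the replicates. Neither lin-42 peak reached the median signal value of the IDR list, 65.5, which 3 of the 5 kin-20 peaks exceeded.

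**Figure D2:**
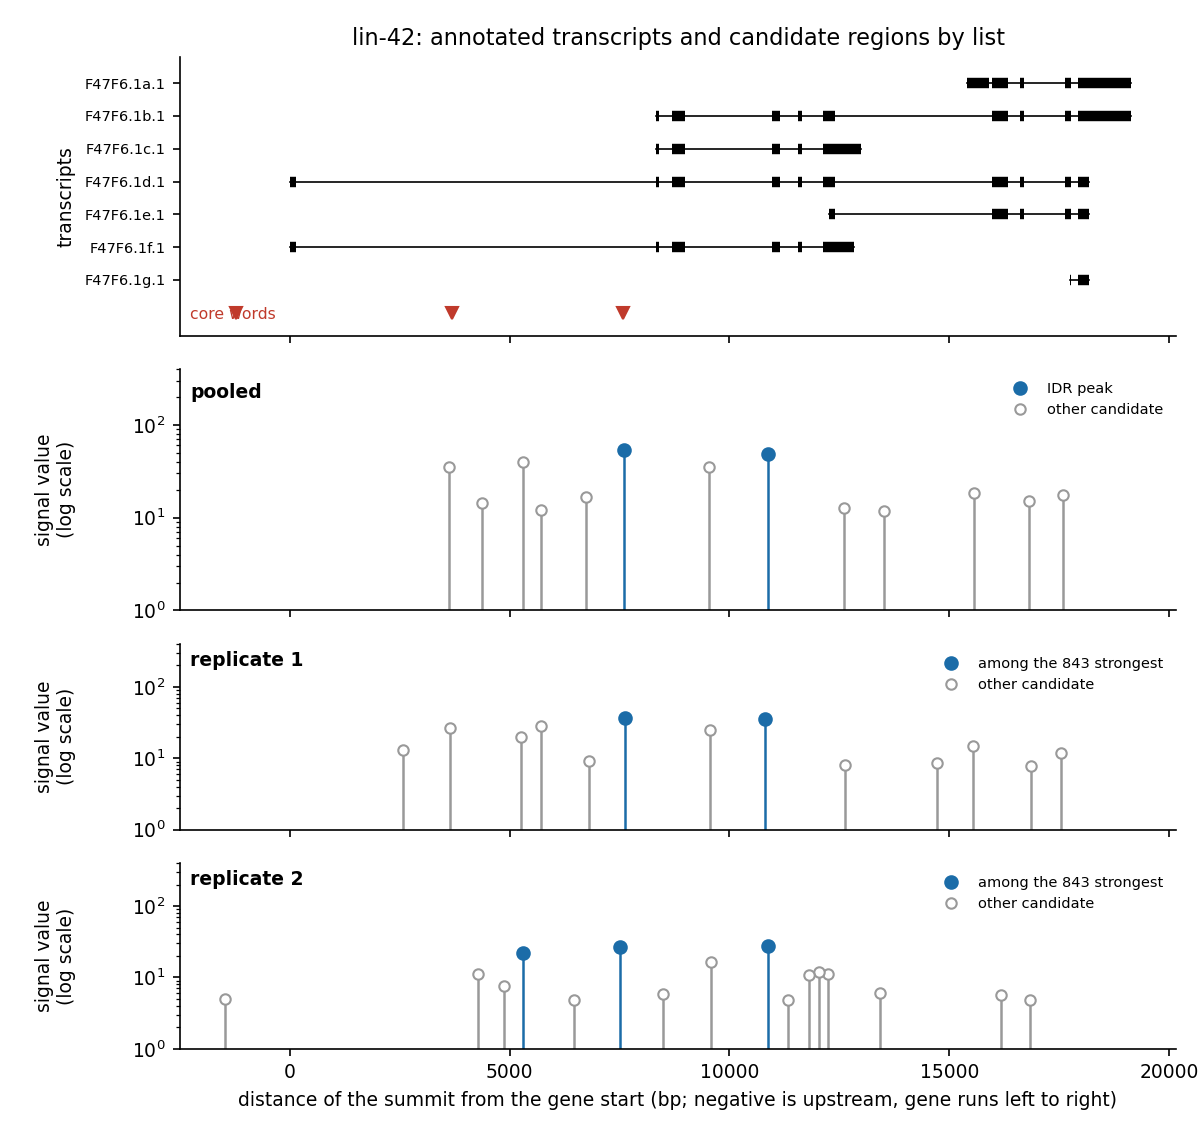
Transcripts of lin-42 (top, exons as boxes) and candidate regions of the pooled list and of each replicate, by distance of the summit from the gene start in bp and by signal value on a log scale, with symbols as in the map of kin-20. The IDR peaks stand 7591 and 10866 bp inside the gene start, on either side of the start shared by transcripts b and c, and no pooled candidate lies upstream of the gene start.

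Sequence around the lin-42 summits is printed for comparison with kin-20, with the same capitals and strand. The last line reaches 100 bases below the summit of a candidate outside the IDR list, so that it takes in a core.
lin-42 intron 1, chrII:1244718-1244818: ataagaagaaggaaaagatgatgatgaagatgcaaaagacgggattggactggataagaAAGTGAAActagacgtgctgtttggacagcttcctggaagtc
lin-42 intron 2 of b and c, chrII:1241443-1241543: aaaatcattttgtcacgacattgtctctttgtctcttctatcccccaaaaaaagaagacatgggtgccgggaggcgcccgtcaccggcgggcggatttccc
lin-42 intron 1, candidate outside the IDR list, chrII:1248638-1248788: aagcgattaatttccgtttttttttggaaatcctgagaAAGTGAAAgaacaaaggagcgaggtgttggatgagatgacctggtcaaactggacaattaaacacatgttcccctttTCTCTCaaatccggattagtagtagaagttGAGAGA

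Of the lin-42 peaks, the stronger held 1 core and the other held neither the core nor GAGAGA. The core at II 1244777 to 1244784 lay 9 bp from the pooled summit. Neither replicate's own summit for that region, at II 1244729 in replicate 1 and at II 1244851 in replicate 2, had the core wholly within 50 bp. The match thus depends on which summit is used.

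Just below the IDR list, lin-42 had a group of 3 candidates, in a range of ranks where kin-20 had none (between 693 and 2765). The candidate with its summit at II 1247060 had a signal value of 39.5 (rank 1143), the one at II 1248738 had 35.3 (rank 1501) and the one at II 1242816 had 35.0 (rank 1539). The next, at II 1236807 and II 1234773, had 18.3 (rank 10925) and 17.6 (rank 12168). The lowest lin-42 peak inside the list had 48.2, against 39.5 for the highest candidate outside it.

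The replicates differed at several of these candidates. The one at II 1247060 ranked 2884 in replicate 1 and 787 in replicate 2, and 2 noncoding RNA genes, F47F6.13 and F47F6.15, overlap its region. Its pooled summit lies inside F47F6.15. The one at II 1248738 ranked 1131 in replicate 1 and had no candidate in replicate 2. Its core at II 1248676 to 1248683 lay 55 bp from the pooled summit and within 50 bp of the summit in replicate 1. The one at II 1242816 ranked 1300 in replicate 1 and 1944 in replicate 2.

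The strongest lin-42 region of 1 replicate alone was in replicate 1, at II 1246655, with a signal value of 28.4 there (rank 939). The pooled list held the same summit at 12.1 (rank 27213), and replicate 2 held no overlapping candidate. In replicate 2 the strongest such region was at II 1240328 (11.8, rank 5055). Upstream of the gene start, replicate 2 alone held a candidate, at II 1253822 (5.01, rank 27811). Just past the 3′ end, the first pooled candidate outside the locus had its summit 88 bp beyond the gene (17.2, rank 12851). On the upstream side the first lay 15803 bp from the gene start (27.2, rank 3195).

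Read against all candidates, the members reached the IDR list often, which the choice of the genes used. At kin-20, 5 of 12 pooled candidates (41.7%) were IDR peaks, and at lin-42 2 of 13 (15.4%), against 2.81% of all pooled candidates. Per 10 kb of locus this is 3.53 IDR peaks at kin-20 and 0.829 at lin-42, against 0.0816 over the nuclear genome. With each replicate's strongest regions in the number of the IDR list, kin-20 had 4 summits in each replicate. Nuclear protein-coding genes with at least 4 in both were kin-20, bcl-11 and pqn-41.

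The share of candidates that overlapped between replicates by at least 1 bp was higher at kin-20 than at lin-42, a difference that depended on the overlap asked for. In replicate 1, 9 of 12 kin-20 candidates (75%, exact 95% interval 42.8 to 94.5) and 5 of 13 lin-42 candidates (38.5%, 13.9 to 68.4) overlapped a replicate 2 candidate, against 27.8% of the whole list. In replicate 2, 9 of 16 at kin-20 (56.3%, 29.9 to 80.2) and 5 of 16 at lin-42 (31.3%, 11.0 to 58.7) overlapped a replicate 1 candidate, against 27.8%. The intervals are Clopper-Pearson and cover counting error only, and since the genes were chosen on these lists they serve as no test. They also treat regions as independent, although some neighbouring kin-20 regions overlap the same region of the other replicate. With a reciprocal overlap of 50% the share in replicate 1 was 41.7% at kin-20 and 38.5% at lin-42. In replicate 2 it was then 31.3% at each gene. With summits within 100 bp of each other, the share in replicate 1 was 58.3% at kin-20 and 30.8% at lin-42. In replicate 2 it was 43.8% and 25% under that rule, so kin-20 stayed the higher. The share over the whole lists is given for the overlap of at least 1 bp only, so shares under the other rules have no such value beside them.

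**Figure D3:**
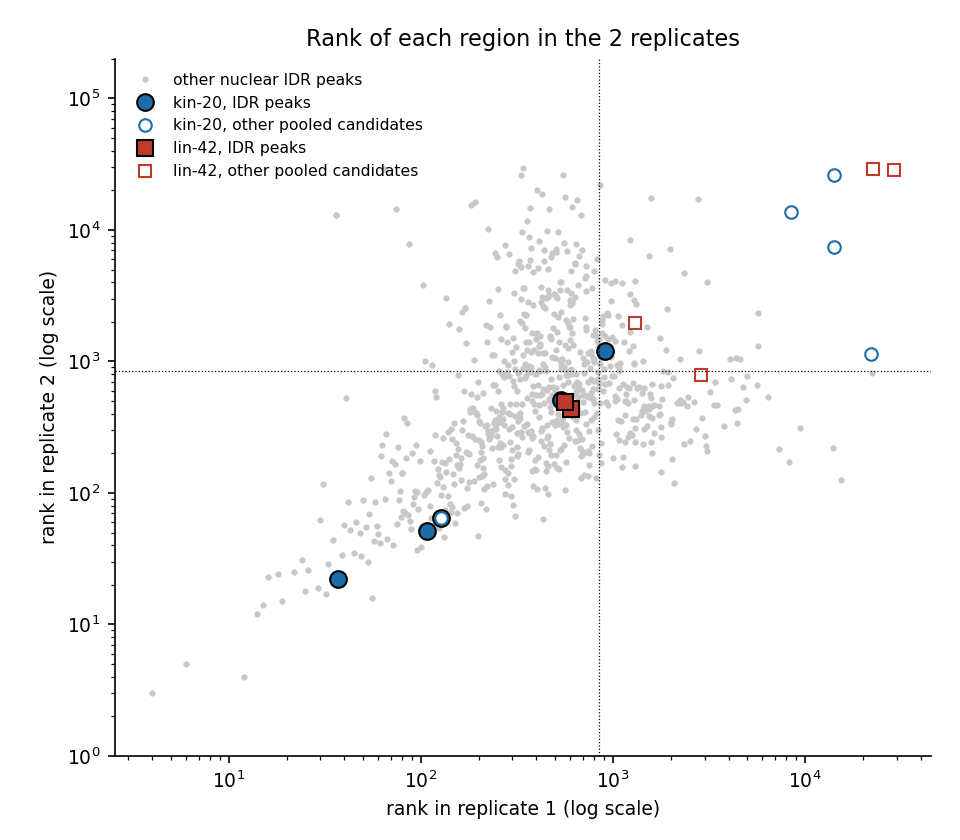
Rank in replicate 1 against rank in replicate 2, both on log scales, for nuclear IDR peaks (grey) and for the kin-20 (circles) and lin-42 (squares) regions that overlap a candidate in both replicates. Filled symbols are IDR peaks, open symbols other pooled candidates, and dotted lines mark the rank equal to the number of IDR peaks. The strongest kin-20 peak stands at 37 and 22, and both lin-42 peaks stand between 433 and 608. An open circle over a filled one at 127 and 65 is the weak candidate at X 15275663, which overlaps the same replicate regions as the peak at X 15275462.

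The replicates placed the summits of these peaks within 36 to 122 bp of each other. At kin-20 the distances were 43 bp for the strongest peak, 36 bp at X 15275001, 96 bp at X 15275462, 53 bp upstream of the start and 47 bp at X 15274196. At lin-42 they were 122 bp at II 1244768 and 64 bp at II 1241493. The median over 785 nuclear IDR peaks that both replicates overlapped was 31 bp, with quartiles of 15 and 59 bp, so all 7 lay above the median and 3 above the upper quartile. Over 7070 other nuclear candidates the median was 112 bp.

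The 3 strongest kin-20 peaks were narrower than most IDR peaks. They were 274, 174 and 218 bp wide, and the other 4 members were 316 bp, which is the median over nuclear IDR peaks. Of those peaks 129 of 818 were narrower than that. G+C content within 50 bp of the summit was 41.6% to 51.5% at kin-20 and 41.6% and 52.5% at lin-42, with a median of 43.6% over nuclear IDR peaks and 31.7% over other nuclear candidates.

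Over both genes the core lay within 50 bp of 3 of 7 IDR summits, 2 at kin-20 and 1 at lin-42. It lay there at 15.5% of all nuclear IDR summits and 1.85% of other nuclear candidates. The word AGTGAAA was at 4 of 7, against 22.1% and 4.06%, and GAGAGA at 1 of 7, against 30.6% and 7.03%. The core or GAGAGA was at 4 of 7, against 42.3% of nuclear IDR summits. With so few summits these counts are a description only. They also rest on pooled summits. Among all replicate 2 summits, AGTGAAA was at 1 of 16 at kin-20 and 0 of 16 at lin-42.

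Words linked to other factors of the clock and molting circuits were not in these 7 windows around pooled summits. The E-box CACGTG was at 0 of 7, against 1.47% of nuclear IDR summits and 1.26% of other candidates. AGGTCA, the element bound by ROR and REV-ERB type receptors, was at 0 of 7, against 4.28% and 2.35%. The GATA words AGATAA and AGATAG with TGATAA and TGATAG were together at 0 of 7, against 21.8% and 21% of the same sets. A GATA word did lie within 50 bp of X 15275569, the replicate 2 summit of the peak at X 15275462. Outside the IDR list some candidates held them: AGGTCA was at 1 of all 12 pooled summits of kin-20 and 2 of 13 of lin-42, and a GATA word at 1 of 12 and 4 of 13. A window without a word says only that these letters are not in it.

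Along the whole kin-20 locus the core occurred 7 times, 0.494 per kb, against 0.137 per kb over the nuclear genome, and along lin-42 it occurred 3 times, 0.124 per kb. At kin-20, the nearest pooled candidate was an IDR peak for 5 of the 7 cores. Beside the 2 cores at summits, these were 176 bp from the summit at X 15274196, 285 bp from that at X 15276957 and 166 bp from that at X 15277906. The same share over all nuclear cores is not given here. Since kin-20 was chosen on its many peaks, no link of cores to peaks is read from this count. At lin-42 the core at II 1253574 to 1253581, 1215 bp upstream of the gene start, had no pooled candidate closer than 4836 bp. The weak replicate 2 candidate at II 1253822 (rank 27811) lay 241 bp from that core.

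Other genes of the clock and of larval timing also carried BLMP-1 peaks in the same kind of locus. Of 12 clock homologues and partners, 5 had an IDR summit (41.7%), and of 14 protein-coding regulators of molting and larval timing 6 did (42.9%), against 6.22% of nuclear protein-coding genes. The median pooled rank of a gene's strongest candidate was 1897.5 and 1001.5 in these lists, against 7384 over the 15674 nuclear protein-coding genes that had one. The lists were written with earlier results of these data known, and their loci have median lengths of 8.67 and 11.0 kb, so nothing particular to them is read from these shares. With 2000 bp upstream in place of 5000 bp, 3 of the 12 clock genes had an IDR summit.

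Among the clock homologues and partners, the 3 strongest were transcription factor genes. The bZIP gene atf-2 had a signal value of 722 and ranked 3 in the pooled list, 4 in replicate 1 and 3 in replicate 2. The receptor genes nhr-23, the ROR homologue, and nhr-85, the REV-ERB homologue, had signal values of 152 (rank 75) and 133 (rank 99), with summits 2616 and 3897 bp upstream of their starts. The F-box gene lin-23, whose fly homologue Slimb targets Period for degradation, had 88.9 (rank 214), and aha-1, a bHLH-PAS gene, had 77.5 (rank 283). No IDR summit lay at tim-1 (rank 5974), the Timeless homologue, or at ces-2 (a bZIP factor), kin-3 and kin-10 (casein kinase 2 subunits), kin-19 (a casein kinase 1), gsk-3 (the Shaggy homologue) and cul-1 (a cullin). For these 6 genes the strongest candidates ranked 1861 to 8217.

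Among the timing regulators, the 6 genes with an IDR summit were lin-14, daf-12, grh-1, nhr-25, lin-41 and myrf-1. The strongest was at lin-14, an early larval timing factor, with a signal value of 92.9 (rank 197), and the nuclear receptor gene daf-12 had 83.4 (rank 246). The epidermal factor gene grh-1 had 80.8 (rank 261) and nhr-25, a receptor gene of the molts, had 71.4 (rank 348), with rank 182 in replicate 1 and 15512 in replicate 2. The other IDR summit of nhr-25, at X 13009837 (rank 548), ranked 332 in replicate 1 and 289 in replicate 2. The peak at lin-41 had 66.9 (rank 406), with rank 8249 in replicate 1 and 173 in replicate 2, and that at myrf-1, a molting factor, had 47.0 (rank 819), with 1025 in replicate 1 and 4089 in replicate 2. The remaining genes with a candidate were hbl-1 (rank 1184), lin-29 (3184), bed-3 (3327), dre-1 (4530), lin-28 (4710) and elt-3 (6688). The gene blmp-1 itself and lin-46 had no pooled candidate.

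Of the 5 miRNA genes of the timing list, lin-4 alone had an IDR summit, 2977 bp upstream, with a signal value of 67.8 (rank 392), against 7.66% of 261 miRNA genes. That summit lies within the protein-coding gene F59G1.4, which surrounds lin-4. The strongest candidates at let-7, mir-48 and mir-241 ranked 3200, 6028 and 13104, and mir-84 had none.

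**Figure D4:**
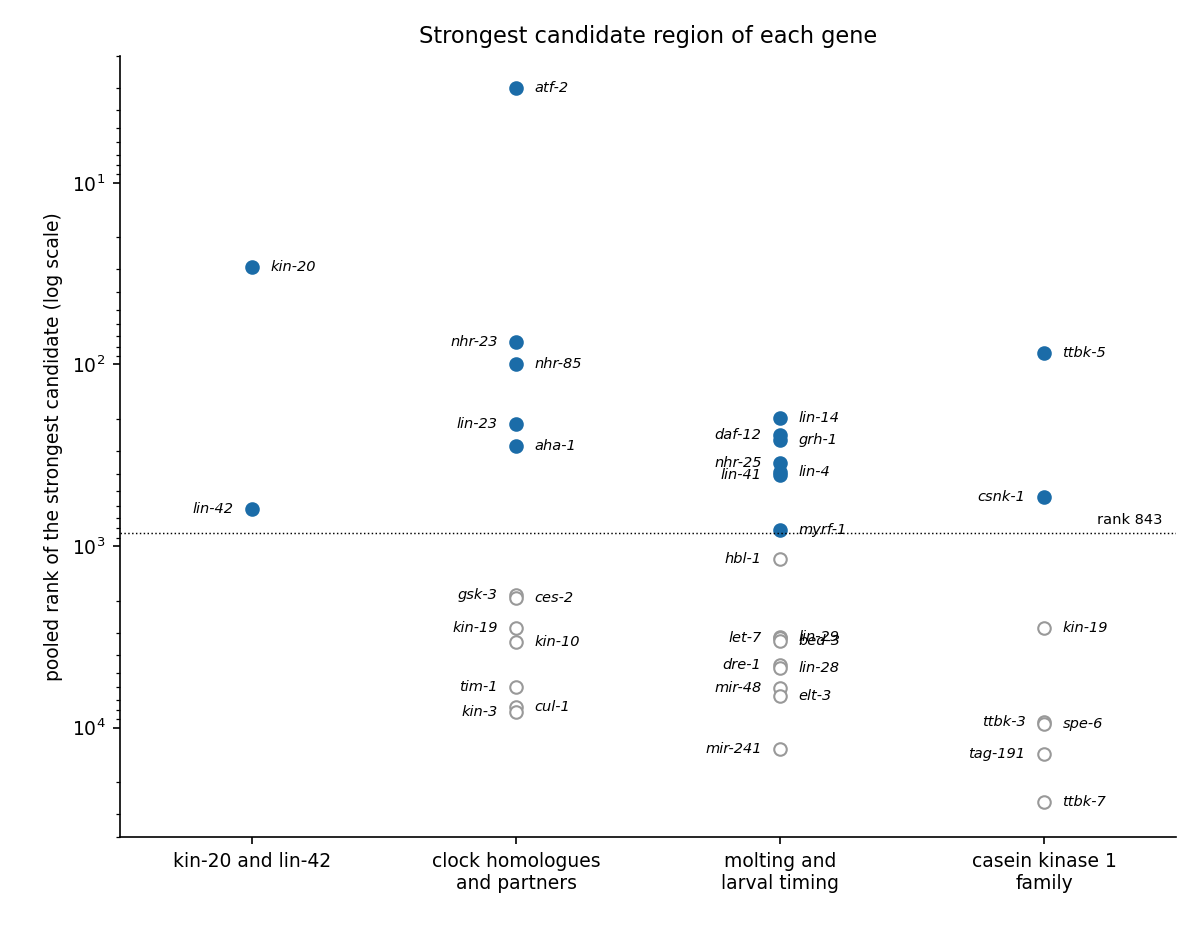
Pooled rank of the strongest candidate region of each gene on a log scale with rank 1 toward the top, for kin-20 and lin-42 and for 3 gene lists. Filled points have an IDR summit, the dotted line marks the last rank in the IDR list, and genes with no pooled candidate are not drawn. The gene kin-20 stands at 29 and lin-42 at 623, and atf-2 alone among the genes drawn stands above kin-20.

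Among the casein kinase 1 genes listed here by symbol, kin-20 had the region of highest pooled rank. Family members outside this list were not looked at. Of 9 listed relatives found in the annotation, ttbk-5 and csnk-1 had IDR summits (22.2%), 2 each, against 6.22% of nuclear protein-coding genes. The median pooled rank of the strongest candidate was 9336 over the 7 relatives with one, against 7384 over nuclear protein-coding genes. With so few genes nothing is read from this share. The strongest at ttbk-5, a tau tubulin kinase-like gene, had a signal value of 143 (rank 87), but ranked 36 in replicate 1 and 13043 in replicate 2. The other ttbk-5 peak, at IV 10090432 (rank 375), overlaps the same replicate regions. At csnk-1, the casein kinase 1 gamma gene, the strongest summit had 58.1 (rank 534), with 410 in replicate 1 and 8181 in replicate 2. The nearest other IDR summit, at I 10235406, had 46.4 (rank 833), with 484 in replicate 1 and 1087 in replicate 2. The casein kinase 1 alpha gene kin-19 had no IDR summit, its strongest candidate being at rank 2817. The strongest kin-20 region, at 37 in replicate 1 and 22 in replicate 2, thus stood just below ttbk-5 in replicate 1 and far above it in replicate 2.

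The genes most like each member were found by the distance between log10 ranks in the pooled list and both replicates, over 6129 genes with a region in all 3 lists. Nearest to kin-20 were W05F2.7 and edc-4, which share 1 region at ranks 30, 33 and 29 (distance 0.131), and Y48G8AL.15 at ranks 26, 32 and 17 (0.137). These genes had 1, 1 and 2 IDR summits, against 5 at kin-20. Nearest to lin-42 were cutl-24 at ranks 621, 655 and 537 (0.0780), B0454.6 at 577, 604 and 423 (0.0806) and aagr-3 at 743, 502 and 486 (0.0902), with 1, 2 and 1 IDR summits. The ranks are in the order pooled, replicate 1 and replicate 2.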

How the data were processed

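ChIP-seq of eGFP-tagged BLMP-1 in 2 replicates of 1 group was read from narrowPeak lists on build ce11. The authors deposited an IDR list, a pooled candidate list and a candidate list per replicate. The deposited signal value is a score whose scale and normalization are not given in the sources used here, nor are the aligner, peak caller and IDR threshold. The deposited −log10 q value was used in 1 alternative. The labels name the antibody as blmp-1 and, elsewhere, the target as the eGFP-tagged protein. Depth is unknown, and lists on ce10 and the control experiment the labels name were not used here.

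Summits were placed on WBcel235 (ce11) with Ensembl release 115, and sequences come from the RefSeq genome of that build. The sequence of 1 kin-20 peak is not reported here. The gene start is the outermost annotated transcript start. Ranks follow signal value within a list. A replicate's value for a pooled region is its highest ranking overlapping region. A word on either strand counted where all its letters fell within 50 bp of the summit. The IDR peaks are the highest ranking pooled candidates. No test was possible with 1 group. Intervals are exact (Clopper-Pearson). Counting steps were tested on simulated data. Python 3.11.15, pandas 2.3.3 and scipy 1.17.1 were used.

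The members and lists were chosen with earlier results of these data known. Named were the 2 genes, every IDR peak, the 5 strongest other candidates of each, the strongest region of each replicate alone, those at the limits, listed genes with an IDR summit and the 3 most like genes. Other genes and regions named were chosen after their values were seen. Of the casein kinase 1 list, ttbk-1 and ttbk-2 were not matched, and let-7 was matched through RefSeq coordinates. Alternatives covered upstream limits of 2000 and 10000 bp, overlap in place of summit, nearest gene start, a stricter IDR list cut at its median signal value, each replicate's strongest regions or own list, overlap rules, ranking by q value and windows of 100 and 150 bp.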

Additional observations from a re-analysis of the deposited data

How the results depend on the processing

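Of 56 alternatives over 18 results, 49 kept the value within 1.5 times (counts and ranks) or within its interval (shares), and 7 did not. The intervals of the shares are wide, so few shares could leave them. The kin-20 share in replicate 2 counted as kept although it fell from 56.3% to 31.3% with a reciprocal overlap of 50%. With IDR peaks at or above their median signal value, kin-20 had 3 peaks and lin-42 had 0. With a reciprocal overlap of 50%, 41.7% of replicate 1's and 31.3% of replicate 2's kin-20 candidates were shared, while the lin-42 shares stayed at 38.5% and 31.3%. With summits within 100 bp the kin-20 shares were 58.3% and 43.8%, and the lin-42 shares 30.8% and 25%. GAGAGA lay at 2 kin-20 peaks within 100 bp and at 2 within 150 bp. By q value, the strongest lin-42 region ranked 1379 in replicate 1. With 2000 bp upstream, 3 clock genes had an IDR summit. When the IDR list was replaced by as many top regions of a single replicate, kin-20 had 4 peaks in either case and lin-42 had 2 to 3. No paired analysis was possible because all samples are of the same group. The unknown depth and the 2 samples limit every value here.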
